A study of Caenorhabditis elegans with 2 samples.

Results

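Autosomal divergent promoter regions are regions called in a ChIP-seq experiment on the tagged nuclear receptor NHR-237 that lie beside the starts of neighbouring genes read away from each other. They were taken from the regions the authors called on both libraries together, at a loose threshold that lets background through, so a region in this list is not by itself evidence of binding. A region belonged when it lay on 1 of the 5 autosomes and its summit was within 1000 bp of the start of a protein-coding gene on the minus strand and of one on the plus strand. The minus-strand start also had to lie left of the plus-strand start. The rule used position only, so the signal at these regions was not used to choose them. It took 441 regions, out of 6542 pooled regions, and 8.22% of the 5363 on autosomes (exact binomial 95% interval 7.5 to 8.99). They lay at 415 pairs of genes, and 829 genes in all. The other autosomal regions were 1892 with a start in reach on 1 strand only, called 1-strand promoter regions here, 3000 with no start in reach, and 30 with starts on both strands but no diverging pair. On the X chromosome the same rule took 21 regions. The authors' −log10 q-value had a median of 0.195 in the 441 regions (quartiles 0.0523 and 1.29, maximum 2.81). It was 1 or more, a q-value of at most 0.1, in 128 of them (29%, 24.8 to 33.5), against a background of 8.47% of autosomal regions. Most of the members thus had a weak call of their own, and every statement below that a gene had a region includes such weak calls.

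The study mapped NHR-237 by chromatin immunoprecipitation and sequencing in Caenorhabditis elegans at the second larval stage, L2, a whole-animal sample of both sexes and of all tissues. The strain, OP228, has the genotype unc-119(ed3) III; wgIs228, in which wgIs228 is an integrated transgene that carries eGFP-tagged nhr-237. The antibody label names nhr-237, and the sources used here name neither the strain of the control nor the tissues in which the transgene is active. Both libraries, biological replicates 1 and 2, belong to 1 group, so no condition is contrasted and every value below describes these libraries.

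Nuclear hormone receptors are transcription factors with a zinc-finger DNA-binding domain, and many bind small lipophilic ligands. The family is much larger in C. elegans than in mammals, and most of its members have no known ligand. In a divergent promoter, genes on opposite strands start back to back and share the DNA between them, so that a factor bound there stands upstream of both. In C. elegans many messenger RNAs are trimmed at the 5′ end by trans-splicing, so the annotated start of a gene can lie downstream of the place where transcription begins.

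The 8 divergent promoter regions with the highest pooled signal are shown because of that signal. Some of the motifs described further on were picked from them, so their presence here describes that choice. Each run is 151 bases of the plus strand of WBcel235 (ce11), 5′ to 3′, with the summit at base 76, and is named by the minus-strand and the plus-strand gene of its pair. They lie, in the order printed, at chrII:5844778-5844928, chrIV:4749989-4750139, chrIII:10759164-10759314, chrIII:13643662-13643812, chrIV:654833-654983, chrIV:13240613-13240763, chrIII:4475606-4475756 and chrIII:4899839-4899989. Capitals mark 6 motifs on either strand, which are GGAGCG, found in 5 of the runs, CATACAC in 4, TACGCAG in 3, TACCGTA as well as CCGCCC in 2 each, and GAGAGAG in 1.
ZK1248.17 / H41C03.3: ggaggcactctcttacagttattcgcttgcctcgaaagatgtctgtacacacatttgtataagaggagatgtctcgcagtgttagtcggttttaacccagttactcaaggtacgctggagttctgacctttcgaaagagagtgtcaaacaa
rpl-20 / Y17G9B.5: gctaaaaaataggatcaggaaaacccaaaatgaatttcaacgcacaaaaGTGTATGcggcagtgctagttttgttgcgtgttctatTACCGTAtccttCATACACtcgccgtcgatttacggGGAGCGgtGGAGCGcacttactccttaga
K01G5.10 / tasp-1: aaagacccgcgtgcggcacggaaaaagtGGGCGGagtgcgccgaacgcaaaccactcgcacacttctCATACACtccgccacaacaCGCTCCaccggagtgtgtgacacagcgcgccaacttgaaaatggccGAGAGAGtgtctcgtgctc
drr-2 / set-16: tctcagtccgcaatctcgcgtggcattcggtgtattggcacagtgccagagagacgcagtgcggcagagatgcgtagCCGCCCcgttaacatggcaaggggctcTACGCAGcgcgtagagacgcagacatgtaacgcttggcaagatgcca
rpl-15 / K11H12.8: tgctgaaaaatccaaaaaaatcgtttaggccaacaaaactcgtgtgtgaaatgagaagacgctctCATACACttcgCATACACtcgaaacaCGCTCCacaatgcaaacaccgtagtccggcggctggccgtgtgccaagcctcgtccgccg
rpl-12 / lin-54: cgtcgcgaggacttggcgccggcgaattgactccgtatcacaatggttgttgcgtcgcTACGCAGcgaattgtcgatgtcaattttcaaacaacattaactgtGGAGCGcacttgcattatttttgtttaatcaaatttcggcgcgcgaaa
ifet-1 / rps-1: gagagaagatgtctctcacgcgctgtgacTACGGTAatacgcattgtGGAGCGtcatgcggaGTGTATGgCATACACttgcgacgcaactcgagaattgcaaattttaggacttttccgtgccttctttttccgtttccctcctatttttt
nhl-2 / tag-340: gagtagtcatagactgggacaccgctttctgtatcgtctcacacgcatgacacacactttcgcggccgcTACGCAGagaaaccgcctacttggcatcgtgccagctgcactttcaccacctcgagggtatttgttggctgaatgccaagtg
In these runs GGAGCG was the motif most often seen, at ribosomal protein genes and at K01G5.10 / tasp-1. The run at ZK1248.17 / H41C03.3 held none of the 6.

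The signals at these regions were high in both libraries. Each list has its own scale, so a level in replicate 1 cannot be set against a level in replicate 2. The region at ZK1248.17 / H41C03.3 had a pooled signal of 215, with 137 in replicate 1 and 78.4 in replicate 2. Its summit lay outside the space between those starts, 688 bp downstream of the ZK1248.17 start in sequence annotated as intergenic, and within 250 bp of sls-2.1, a gene for a spliced leader RNA. The region at rpl-20 / Y17G9B.5, beside a protein of the large ribosomal subunit, had a pooled signal of 199.5, with 119 and 74.9 in the replicates. At K01G5.10 / tasp-1 the pooled signal was 198, with 122 and 73.2. These values ranked between 16 and 18 in the pooled list, between 17 and 21 in replicate 1 and between 14 and 17 in replicate 2, so the libraries placed these regions almost alike. At drr-2 / set-16 the pooled signal was 152 (99.6 and 54.3 in the replicates). drr-2 encodes a protein related to a translation initiation factor, and set-16 a histone H3 lysine 4 methyltransferase. At rpl-15 / K11H12.8 it was 136 (89.8 and 47.2), and at rpl-12 / lin-54, where lin-54 encodes a DNA-binding subunit of the DREAM repressor complex, it was 116 (77.3 and 36.2). The regions at ifet-1 / rps-1 and nhl-2 / tag-340 had pooled signals of 114 (65.4 and 46.5) and 110.1 (77.1 and 33.5). ifet-1 encodes a translational repressor, rps-1 a protein of the small ribosomal subunit and nhl-2 a cofactor of the microRNA pathway.

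The next 17 in order of signal had pooled values from 109 down to 72.8, and all 25 were IDR peaks, as defined further on. They included haf-3 / F57A10.2, beside a gene for an ABC transporter of the HAF family (89.8, with 62.7 and 26.9 in the replicates), and T23F6.3 / rbd-1, beside a gene for an RNA-binding protein of ribosome assembly (89.7, with 66.5 and 21.8). At gmps-1 / cap-2 the pooled signal was 88.6 (58.8 and 28.6), at iff-2 / F54C9.14 it was 86.2 (62.8 and 20.6) and at mcrs-1 / atp-1 82.7 (53.7 and 31.7). Of the 25, the regions at ZK1248.17 / H41C03.3 and at mcrs-1 / atp-1 had the summit beyond a start, the latter 12 bp downstream of the atp-1 start in its 5′ UTR.

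Divergent promoter regions carried more signal than the other autosomal regions. Their median pooled signal was 25.5 (quartiles 21.3 and 37.7, range 18.8 to 215). It was 22.2 at 1-strand promoter regions (quartiles 20.2 and 26.1), 21.5 at regions away from starts and 21.9 over all autosomal regions. The authors also kept a short list by the irreproducible discovery rate (IDR), which measures how well ranks agree between replicates. It held 350 peaks, and these are the pooled regions with the highest signal, from 41.9 upwards. This IDR list held 92 of the 441 divergent promoter regions (20.9%, exact 95% interval 17.2 to 25), against a background of 5.15% of all autosomal regions. Of 1-strand promoter regions it held 111 (5.87%, 4.85 to 7.02), and of regions away from starts 70 (2.33%, 1.82 to 2.94). The intervals cover counting error in regions only, since regions of the same libraries are not replicates, and those of the divergent and the 1-strand regions did not overlap. On X, 1 of the 21 divergent promoter regions was an IDR peak (4.76%, 0.12 to 23.8). The lowest IDR signal and the highest signal of a divergent promoter region outside the list, at rpl-39 / rps-30, were 41.9 and 41.4.

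**Figure D1:**
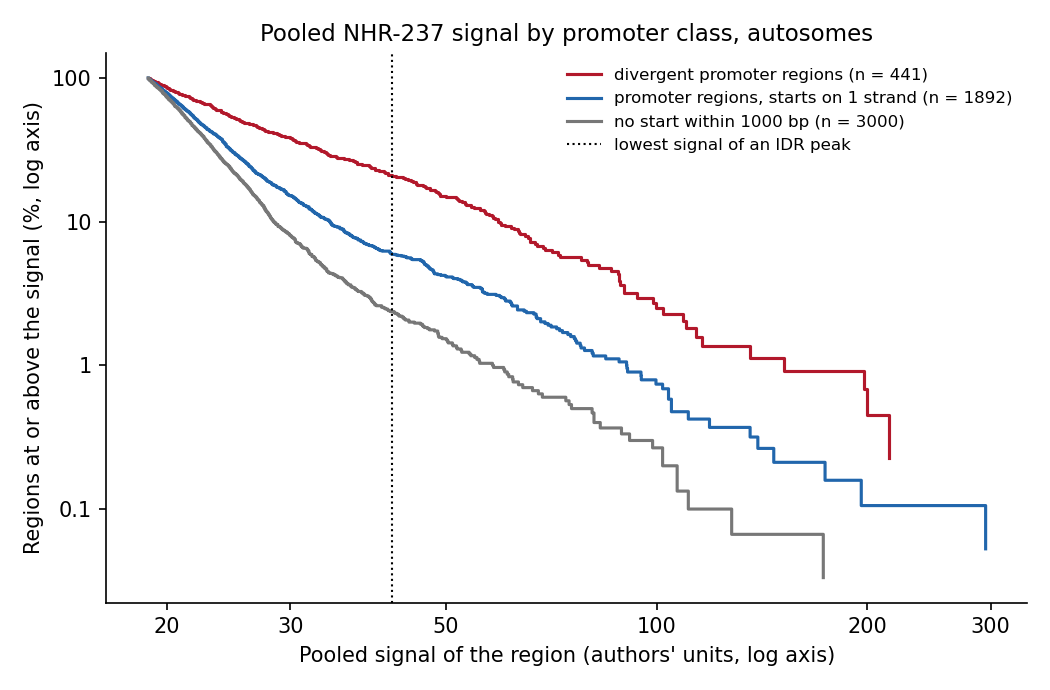
Percent of autosomal regions (vertical axis, log) at or above each pooled signal (horizontal axis, authors' units, log) for 441 divergent promoter regions, 1892 with starts on 1 strand and 3000 away from starts. The divergent line lies above the others from a signal of about 20 up to 215, and at the lowest IDR signal (dotted, 41.9) the classes stand near 20.9%, 5.87% and 2.33%.

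The same order was found in each library on its own. Among the 350 regions with the highest signal in replicate 1, a summit lay within 150 bp of 84 divergent promoter regions (19%, 15.5 to 23), against 6.08% of 1-strand promoter regions and a background of 5.11%. For replicate 2 the numbers were 76 (17.2%, 13.8 to 21.1), 5.29% and 4.89%. In 47 divergent promoter regions the highest 350 of both replicates had a summit. A region of any rank was present in both replicate lists for 283 (64.2%, 59.5 to 68.7), against 53.4% of 1-strand promoter regions and a background of 52.1%. A further 110 matched replicate 1 only, 42 replicate 2 only and 6 neither. Pooled signal was computed by the authors from the same libraries, so these presences are not independent of it.

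Over the 283 regions present in both lists, the replicate signals had a Spearman's rho of 0.468, which was 0.313 when the 25 divergent promoter regions of highest pooled signal were left out. These points share their libraries and are given as a description. The signal of replicate 1 was a median of 1.72 times that of replicate 2 (quartiles 1.15 and 2.4), and 1.57 times over all autosomal regions. All 92 IDR regions were matched in both lists. Their signals ran from 21.6 to 137 in replicate 1 (median 36.9) and from 6.09 to 78.4 in replicate 2 (median 21). Their ranks reached 867 in replicate 1 and 21120 in replicate 2, so replicate 2 placed some of them far down. All 25 of the highest were among the highest 350 of replicate 1 and 23 among those of replicate 2. The others were cct-8 / Y55F3AR.2, with a signal of 74.2 and rank 39 in replicate 1 but 16.9 and rank 489 in replicate 2, and the region at chrIV:15646553-15646928, with 51.1 and 17.6 and ranks of 96 and 416.

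**Figure D2:**
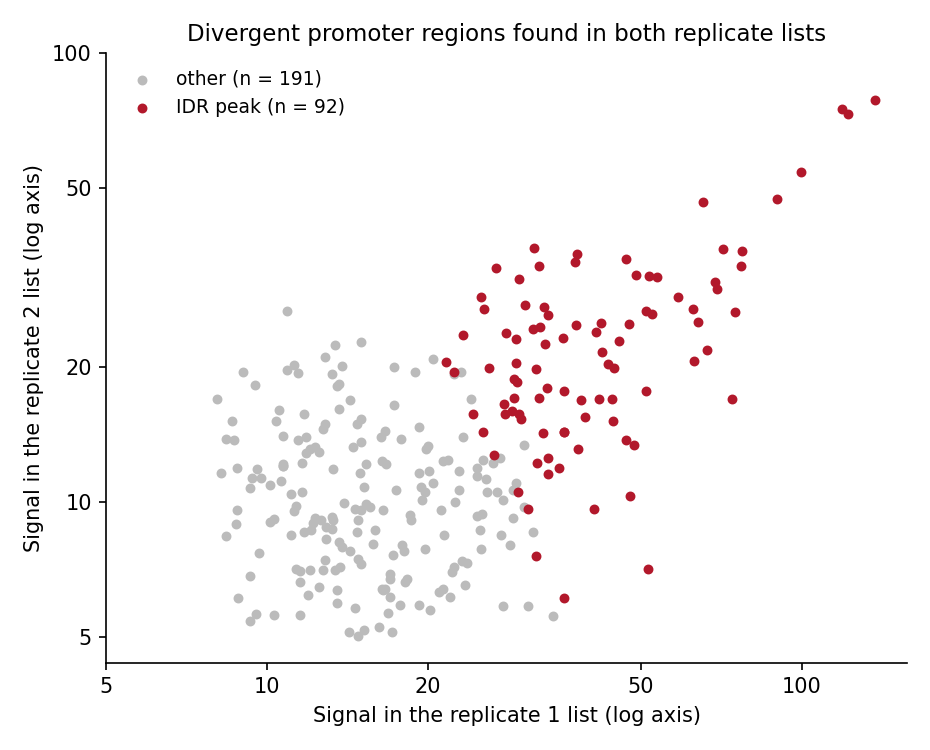
Signal of the 283 divergent promoter regions found in both replicate lists, in replicate 1 (horizontal, log) and replicate 2 (vertical, log), each point a region, with the 92 IDR peaks in red. The strongest regions rise together to 137 and 78.4, while the grey regions form a broad cloud with little order.

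Distance from a gene start was compared next, since a region with starts on both sides is on average nearer to one. The nearer start of the pair lay a median of 156 bp from the summit (quartiles 77 and 263), whereas the nearest start of 1-strand promoter regions lay 394 bp away. The share of IDR peaks was therefore taken in classes of distance. Within 99 bp of the nearest start 21.6% of them were IDR peaks (30 of 139, 15.1 to 29.4), against 8.37% of 1-strand promoter regions (5.19 to 12.6). At 100 to 199 bp it was 24.2% (32 of 132, 17.2 to 32.5) against 10.9%, and at 200 to 299 bp 20% (16 of 80, 11.9 to 30.4) against 8.54%. At 300 to 499 bp it was 18.2% against 4.99%, and at 500 to 1000 bp 11.4% (4 of 35, 3.2 to 26.7) against 2.93%. Intervals overlapped at 200 to 299 bp and at 500 to 1000 bp, and did not overlap in the other 3 classes. When only summits between the starts were set against 1-strand summits upstream of their start, the shares were 21% against 10.6%, 27.4% against 15.4%, 25.8% against 11.8%, 20.6% against 7.95% and 13% against 4.72%, in the same order of distance. The intervals then overlapped in all 5 classes (at 100 to 199 bp, 19.5 to 36.4 and 10.5 to 21.5). The counts from the highest 350 regions of each replicate had the same order in all 5 classes of distance.

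**Figure D3:**
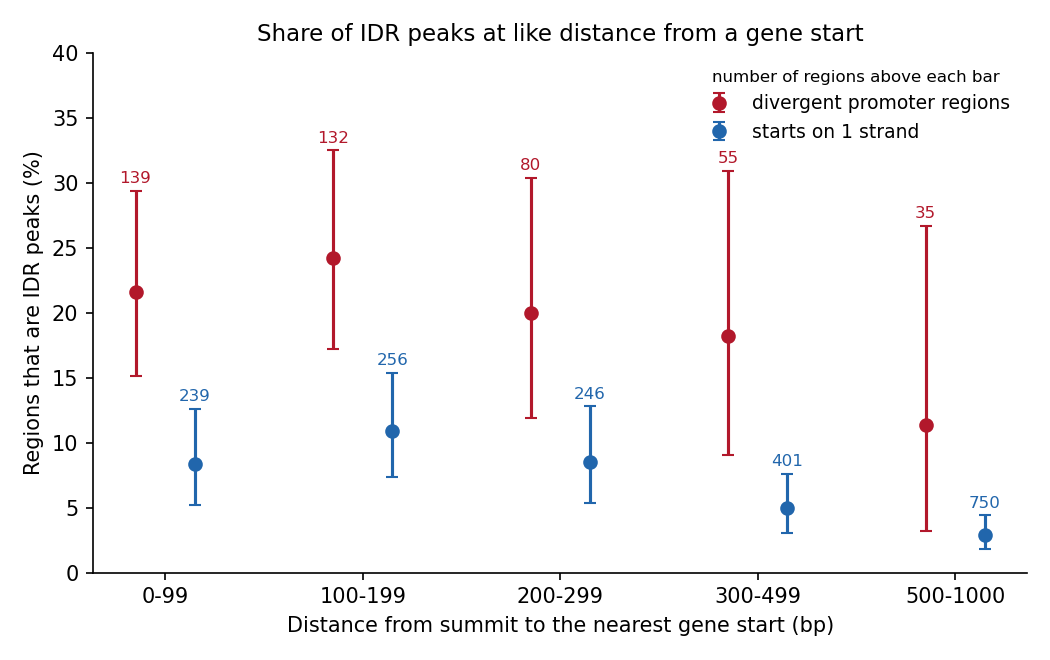
Percent of regions that are IDR peaks (vertical) by distance from the summit to the nearest gene start (horizontal, bp), with exact binomial 95% intervals and the number of regions above each. Divergent promoter regions (red) lie between 11.4% and 24.2% and above 1-strand promoter regions (blue, 2.93% to 10.9%) in every class of distance.

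Base composition moved with the signal. The sequence within 100 bp of the summit had a median GC content of 41.8% in the 92 IDR regions and 36.8% in the other 349, and 35.3% over all autosomal regions. Among divergent promoter regions under 35% GC, 21 of 165 were IDR peaks (12.7%), and at 45% or more 30 of 69 (43.5%). In 1-strand promoter regions the same classes held 1.4% and 18.9%. In the classes between them, 35 to 40% and 40 to 45%, the divergent regions held 12.4% and 30.2% and the 1-strand regions 6.25% and 10.3%. The divergent share was higher in all 4 classes of GC, with the counts at 35 to 40% being 15 of 121 against 30 of 480. No intervals were computed for these classes, and they were not split by the position of the summit. Any part of GC content in the recovery of DNA was not tested.

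The summits lay mostly in the space the genes share. The starts of a pair were a median of 513 bp apart (quartiles 309 and 762, range 20 to 1815). In 336 of the 441 regions (76.2%, 71.9 to 80.1) the summit lay between the starts, and of these 208 (61.9%) were in the central 50% of that space. The nearer start was then a median of 150.5 bp away and the farther one 398 bp. In the other 105 the summit lay beyond a start, on the side of the minus-strand gene in 53 and of the plus-strand gene in 52. The nearer gene was on the minus strand in 209 regions and on the plus strand in 232. By annotation 331 summits were intergenic (75.1%), 40 in introns, 38 in coding exons, 27 in 5′ UTRs, 4 in 3′ UTRs and 1 in another exon.

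Regions with the summit between the starts were then set beside those beyond a start. The former had a median signal of 27.3, and 79 of 336 were IDR peaks (23.5%, 19.1 to 28.4). The latter had a median of 22.4, and 13 of 105 were IDR peaks (12.4%, 6.76 to 20.2), and these intervals overlapped. Of 1-strand promoter regions, those upstream of the nearest start held 101 IDR peaks of 1122 (9%, 7.39 to 10.8) and those downstream 10 of 770 (1.3%, 0.624 to 2.38). The share was the highest of the 4 at positions upstream of both genes. The interval of regions beyond a start overlapped that of the 1-strand regions upstream of a start.

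**Figure D4:**
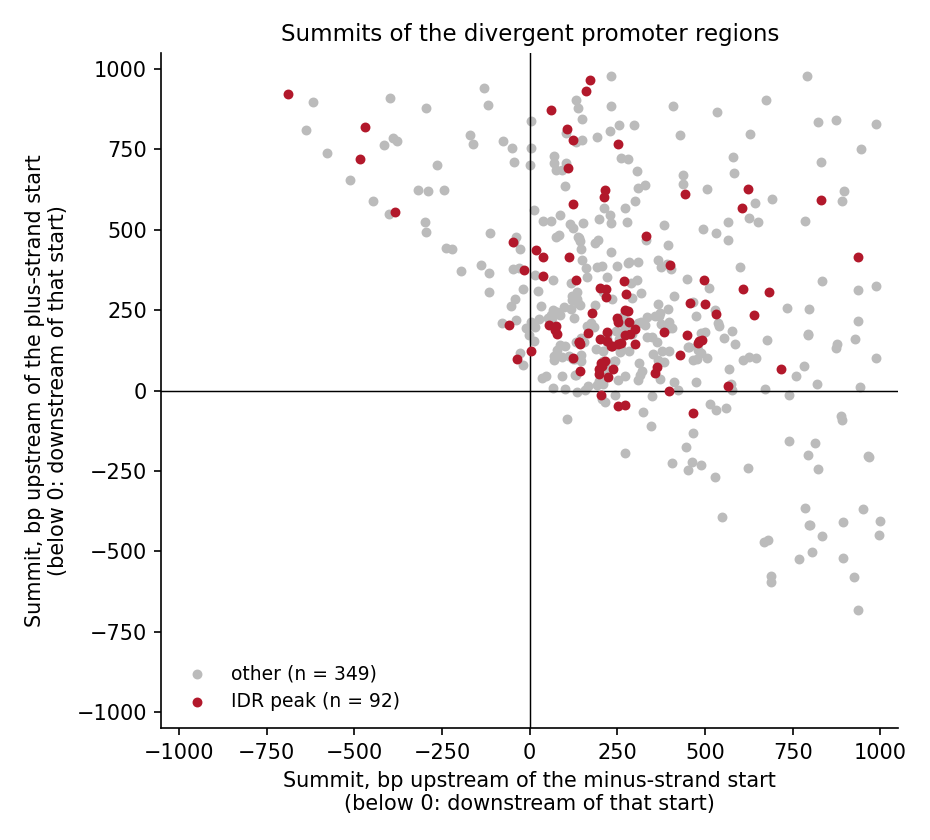
Position of each of the 441 summits upstream of its minus-strand start (horizontal, bp) and of its plus-strand start (vertical, bp), with the 92 IDR peaks in red. The upper right quadrant, upstream of both genes, holds 336 summits and 79 of the IDR peaks.

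Looked at from the genes, 2382 pairs on the autosomes consisted of a minus-strand start followed by a plus-strand start within 2000 bp. Of these, 414 (17.4%, 15.9 to 19) had a region in reach of both starts and 91 (3.82%) an IDR region. The remaining pair of the 415 was not one of adjacent starts. Pairs 251 to 500 bp apart had a region most often (137 of 517, 26.5%, 22.7 to 30.5), and the share was 18.8% at 1 to 250 bp, 22.9% at 501 to 750 bp and 18.1% at 751 to 1000 bp. It was 10.8% at 1001 to 1250 bp, where the rule itself leaves less room for a summit in reach of both. Among the members, 28.9% of those at pairs 250 to 499 bp apart were IDR peaks (41 of 142, 21.6 to 37.1) and 14.9% of those at pairs under 250 bp (11 of 74, 7.66 to 25). These intervals overlapped. The share was 15.5% at 500 to 749 bp, 23.1% at 750 to 999 bp and 16% at 1000 to 2000 bp, so it followed no order with the gap.

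The chromosomes differed in how often a pair had a region. The share was 25.7% on III (99 of 385, 21.4 to 30.4), 21.5% on I (17.7 to 25.7), 18% on IV (14.5 to 21.9), 13.5% on II (10.5 to 17) and 12.2% on V (9.82 to 15). Neighbours in this order had overlapping intervals, while those of III and of II or V did not overlap. The share of members that were IDR peaks had another order, 34.3% on II (24 of 70, 23.3 to 46.6), 25% on I, 19.6% on III, 17.9% on IV and 10.1% on V (9 of 89, 4.73 to 18.3). In 24 pairs there were 2 regions and at ZK1248.17 / H41C03.3 there were 3, with pooled signals of 215, 60.7 and 24.6.

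The genes of the pairs were read against 23 gene lists made from gene symbols. Of the 4766 autosomal genes in pairs, 829 had a divergent promoter region, a background of 17.4%, and 182 an IDR region, a background of 3.82%. Shares below are of the list's genes in pairs, and the genes of a pair share their region.

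Ribosomal protein genes had the highest share with a region, and with an IDR region, of the 23 lists. Of 81 autosomal ribosomal protein genes 50 were in pairs, and 38 of these (76%, 61.8 to 86.9) had a region and 18 (36%) an IDR region. The median signal was 41.4, against 26.5 over all 829 genes, and lists with fewer regions, such as the chromatin genes at 58.3 and the translation factors at 49.1, had higher medians. The IDR regions beyond the 4 already named were at ska-3 / rps-12 (pooled signal 102, with 68.8 and 30.9 in the replicates), rps-20 / ekl-4 (88.3, with 51.9 and 31.9), rpl-7A / set-21 (88.1, with 64 and 25.2), rps-23 / dpm-3 (67.4), rps-19 / hsr-9 (66), polh-1 / rps-22 (54.9), col-38 / rpl-5 (53.3), ubq-2 / frg-1 (52), rpl-31 / sac-2 (51.7), tmem-107 / rps-26 (50.1), Y48B6A.1 / rpl-43 (46.7), sec-61.A / rps-18 (46.4), rpl-25.2 / C34B7.1 (44.9) and farl-11 / rpl-33 (42.5). The regions at rps-12 and rps-26 also lay within 250 bp of a snoRNA gene. Both subunits were present, with genes of the large and of the small subunit along the whole range of signal.

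In all, 36 regions had a ribosomal protein gene in their pair, 35 of them with the summit between the starts and 28 present in both replicate lists. Their signals ran from 19.1 to 199.5 with a median of 42. Of these 36, 18 were IDR peaks (50%), and 74 of the other 405 divergent promoter regions (18.3%). Without regions that have a ribosomal protein gene in reach, the IDR share of divergent promoter regions was above that of 1-strand promoter regions by 12.7 points (8.88 to 16.9), and with them by 15 points (11.1 to 19.2). They were as near to a start as the others, with a median of 154 bp against 159 bp, and their GC content was higher, with a median of 40.3% against 36.8%. Where only 1 gene of the pair encoded a ribosomal protein, it was the nearer gene in 13 of 32 regions, and the summit lay a median of 295 bp from its start and 196 bp from that of its partner. In 4 regions both genes of the pair encoded ribosomal proteins, at rpl-39 / rps-30 (2 regions), rps-10 / rpl-24.1 and rps-14 / rpl-36. The 12 ribosomal protein genes in pairs without a region in reach were rpl-1, rpl-2, rpl-10, rpl-11.1, rpl-17, rpl-22, rpl-26, rpl-30, rpl-36.A, rpl-41.1, rps-5 and rla-2, at pairs 345 to 1896 bp apart.

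Other genes of protein synthesis were less even. Of 26 translation factor genes in pairs 9 had a region (34.6%, 17.2 to 55.7) and 5 an IDR region. They included ifet-1, iff-2 for initiation factor 5A (86.2, with 62.8 and 20.6 in the replicates), eef-1A.1 for elongation factor 1A (57.7, with 26.8 and 33.1) and eef-2 (53.5, with 35.9 and 17.6). Of 15 tRNA synthetase genes 4 had a region (26.7%, 7.79 to 55.1) and none an IDR region, the highest being ears-2 with 34.5 (30.8 and 5.85).

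Chaperones and chaperonins had a region at 17 of 42 genes (40.5%, 25.6 to 56.7) and an IDR region at 10. The region at Y22D7AL.10 / hsp-60, where hsp-60 encodes the mitochondrial chaperonin, had a pooled signal of 109 (71.2 and 36.6). Those at mig-5 / cct-1 and cct-8 / Y55F3AR.2, beside subunits of the cytosolic chaperonin, had 98.7 and 93.9, and that at hsp-110 / rpn-3 had 79.5 (51.1 and 26.6). The chaperone gene was the nearer of its pair in 4 of 17 regions, with a median distance of 340 bp against 212 bp for the partner. The proteasome list, which includes ubiquitin and its enzymes, had a region at 14 of 35 genes (40%, 23.9 to 57.9), with IDR regions at rpn-3, ubc-6, ubq-2 and pas-4.

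Lists of nuclear pore, transcription, splicing, chromatin and cell cycle genes differed in how many regions were IDR. The counts were 14 of 31 for nuclear pore and RNA export genes (45.2%, 27.3 to 64) with 1 IDR region at npp-3, 12 of 29 for the transcription machinery (41.4%, 23.5 to 61.1) with 4, at mdt-26, mdt-19, rpb-3 and taf-4, and 12 of 30 for splicing factors (40%, 22.7 to 59.4) with 2. The splicing pair was rsp-2 / rsp-1, for SR proteins, which share a region of signal 56 (25.5 and 26.9). Chromatin genes had a region at 11 of 32 (34.4%, 18.6 to 53.2) and an IDR region at 6, among them set-16, lin-54, set-21 and jmjd-1.2, a histone demethylase gene (79.8, with 49 and 32). Cell cycle and replication genes had a region at 16 of 58 (27.6%, 16.7 to 40.9, an interval that includes the background), 1 of them IDR, at rfc-4, which shares the region of eef-1A.1.

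The mitochondrial ribosome and import list had a region at 12 of 30 genes (40%, 22.7 to 59.4) and none was IDR, the highest being tin-9.2 with 40.8 (34.2 and 5.55). The respiratory chain had a region at 7 of 25 (28%, 12.1 to 49.4), with IDR regions at atp-1, for the alpha subunit of ATP synthase (82.7, with 53.7 and 31.7), and cox-10 (52.2). Genes of the secretory pathway had a region at 8 of 28 (28.6%, 13.2 to 48.7), 5 of them IDR. rab-18 had a signal of 70.9 (37.7 and 34.2), and the translocon gene sec-61.A shared the region of rps-18. The cytoskeleton list had 3 of 12 (25%, 5.49 to 57.2), led by cap-2 for an actin capping protein (88.6, with 58.8 and 28.6). The intervals of the translation factor, tRNA synthetase, respiratory chain, secretory pathway and cytoskeleton lists also included the background of 17.4%.

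The remaining lists had shares at or below the background. Of 282 chemosensory receptor genes in pairs 11 had a region (3.9%, 1.96 to 6.87). An IDR region was found at 2 of them, among them sri-5, whose partner rsr-1 encodes a splicing-related SR protein (78.1, with 52.6 and 26.2 in the replicates). Histones had a region at 3 of 63 (4.76%, 0.993 to 13.3), all 3 IDR, namely htz-1, the gene of the variant H2A.Z (88.5, with 47 and 34.7), and the pair his-67 / his-68 (49.1). Histone genes have near-identical copies, and how the authors placed reads that match several copies is not given in the sources used here. F-box and MATH-BTB genes had 10 of 132 (7.58%, 3.69 to 13.5), innate immunity genes 8 of 104 (7.69%, 3.38 to 14.6), collagen and cuticle genes 4 of 44 (9.09%, 2.53 to 21.7) and detoxification genes 5 of 54 (9.26%, 3.08 to 20.3). The upper bounds for the chemosensory, histone, F-box and innate immunity lists lay below the background of 17.4%. Homeobox and neuropeptide genes had 2 of 12 each, and no IDR region was found beside a neuropeptide or innate immunity gene.

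Nuclear hormone receptor genes, the family of nhr-237 itself, were near the background, with a region at 7 of 44 (15.9%, 6.64 to 30.1) and 1 IDR region. The latter lay at dnj-19 / nhr-47, with a signal of 43.8 (23.2 and 23.5) and the summit 1 bp from the annotated nhr-47 start. nhr-8 had 23 (13.9 and 9.94), and nhr-130 and nhr-212 shared a region of 22 that was matched in replicate 2 only (5.68). In the 5 regions with a nuclear receptor gene on 1 side only, that gene was the nearer one each time. The count is small, and other short lists also lay at an extreme, with 2 of 2 for neuropeptides and insulins and 0 of 4 for collagens.

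Regions where more genes of the pair were on a list had more signal. The lists were chosen with earlier results of these data known, so this order may describe that choice. The 36 regions with a ribosomal protein gene, 50% of them IDR, are included. IDR peaks were 15.4% of the 241 regions with no listed gene (11 to 20.5), 24.8% of the 165 with 1 (18.5 to 32.2) and 40% of the 35 with 2 (23.9 to 57.9), with median signals of 25.1, 26.7 and 32.6. The intervals of neighbours overlapped, and those of the first and the last did not. Many members of high signal were at pairs with no gene on a list, such as K01G5.10 / tasp-1 and gpap-1 / scpr-1 (99.7, with 75 and 26.4).

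**Figure D5:**
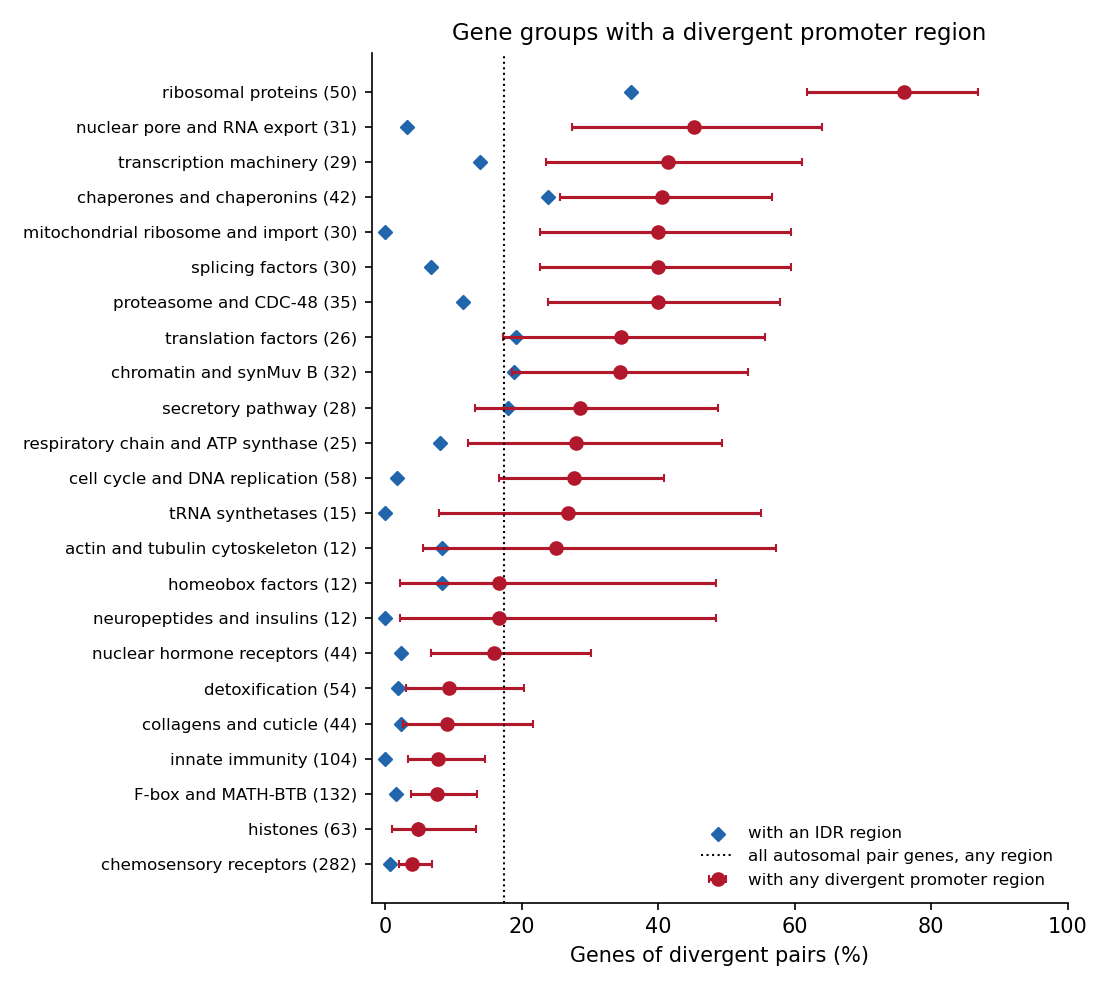
Percent of the genes of each list (number of its genes in autosomal divergent pairs in brackets) with a divergent promoter region (red, exact binomial 95% interval) and with an IDR region (blue). Ribosomal protein genes lie at 76% and chemosensory receptors at 3.9%, with all pair genes at 17.4% (dotted).

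The sequences shown above were read against all members within 100 bp of the summit, on both strands, and against regions of the same length elsewhere. GGAGCG was in 57 divergent promoter regions (12.9%, 9.94 to 16.4), 5.29% of 1-strand promoter regions and 4.74% of all autosomal regions. Divergent promoter regions hold more IDR peaks. Among IDR peaks the shares were closer, at 21.7% of the 92 members (13.8 to 31.6) and 16.2% of the 1-strand promoter regions (9.9 to 24.4). These intervals overlapped, and the share was 17.8% of all IDR peaks on autosomes. Outside the IDR list GGAGCG was in 10.6% of divergent (7.58 to 14.3) and 4.6% of 1-strand promoter regions (3.68 to 5.68). Those intervals did not overlap. GGAGCG was picked from the printed runs, so its split by signal describes that choice. Without the 8 printed regions it was in 17.9% of IDR members (15 of 84, 10.4 to 27.7) and in 10.6% of the other 349 (7.58 to 14.3), with overlapping intervals. At the midpoints of autosomal pairs without a region the share was 4.47%.

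TACCGTA was picked as letters more frequent in IDR members than in other members, so its split between these is a description of that choice. Its share of all members carries the same choice. In the 349 members outside the IDR list it was in 4.01% (2.21 to 6.64). The share was 2.36% (1.7 to 3.17) in 1-strand promoter regions outside that list, with overlapping intervals. With IDR peaks included, TACCGTA was in 32 members (7.26%, 5.02 to 10.1), 18 of them IDR, and in 2.64% of 1-strand promoter regions. It was in 3.24% of all autosomal regions and 4.47% of midpoints of pairs without a region. The IDR members with it included the pairs of rpl-20, rps-1, rps-20, rps-23, rpl-43, rpl-33 and ubq-2, as well as eef-1A.1, eef-2, atp-1 and cox-10. Of the 36 regions with a ribosomal protein gene 10 held it, and 22 of the other 405. IDR peaks were 50% of the former and 18.3% of the latter, so these counts carry the choice too. GGAGCG occurred together with TACCGTA in 4 members, 3 of them IDR.

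The last motifs were picked from the printed runs. CATACAC was in 8 members (1.81%, 0.786 to 3.54) and 1.96% of all autosomal regions, so its presence in 4 of the 8 printed runs was not shared by the members at large. All 5 IDR members with CATACAC also held GGAGCG, and none of the other 3 did. Only 1 of the 84 IDR members not printed held CATACAC, so this overlap mostly restates the printed runs. TACGCAG was in 19 members (4.31%, 2.61 to 6.65) and in 1.32% of all autosomal regions. It was in 5 of the 84 IDR members not printed (5.95%, 1.96 to 13.3). That was near its share of all autosomal IDR peaks, 5.8% (3.35 to 9.24), which include the members. TACGCAG was in 7 of the 36 regions with a ribosomal protein gene and in 12 of the other 405. IDR peaks were 50% of the former and 18.3% of the latter, and the motif was picked from printed IDR members. These counts thus carry that choice too.

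Of the other 9 motifs counted, CCGCCC was in 8.39% of members (5.98 to 11.4) and 5.41% of all autosomal regions. It was in 16.3% of IDR members (9.42 to 25.5) and in 14.5% of all autosomal IDR peaks (10.6 to 19.2), which include them. GAGAGAG, letters bound by GAGA-type factors in other animals, was in 7.26% of members (5.02 to 10.1) and 6.15% of all autosomal regions. In members taken from replicate 2 alone, without replicate 1, it was in 4.19%, and within 50 bp of the summit in 3.4%. It was in 10.9% of IDR members (5.34 to 19.1) and in 20.3% of all autosomal IDR peaks (15.7 to 25.5), which include them. AGGTCA, the core letters of many nuclear receptor sites, was in 13 members (2.95%, 1.58 to 4.99) and in 4.64% of all autosomal regions. TATAAA was in 8.7% of IDR members (3.83 to 16.4) and 23.8% of the other members, and TGATAA, letters bound by GATA factors, in 3.26% and 15.8%. All autosomal IDR peaks had low shares too, with TATAAA in 11.2% (7.76 to 15.6) and TGATAA in 7.25% (4.48 to 11). Over all autosomal regions the shares were 22.5% and 15.7%. TTTCAG was in 34.5% of members and 35.6% of all autosomal regions, ATTGG in 29.7% and 36.8%, TTCAAA in 47.8% and 49.3%, and CACGTG in 3.63% and 3.34%. IDR members had the higher GC content given above, and any part of GC content in these splits was not tested. TTCAAA, like TATAAA and TGATAA rich in A and T, was in 52.2% of IDR members (41.5 to 62.7). It was in 46.7% of the other members (41.4 to 52.1). A match describes letters and not a binding site, and none of the motifs contains another.

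Thymine was uneven across the summit in the space between divergent genes. In the 336 members with the summit between the starts, the 100 bases left of the summit on the plus strand held a median of 27% T and the 100 to the right 34%. The right side had more T in 236 regions (70.2%), with a median difference of 6 percentage points (quartiles -1 and 15). In the 79 IDR members among them the difference was 10 points, with more T to the right in 60. Adenine ran the other way, with a median of 33% left of the summit and 27% right of it, and A on the plus strand is T on the minus strand. On the side of each gene, T was thus the more frequent on the strand on which that gene is read. This strand bias also held at 1-strand promoter regions with the summit upstream, so it is not particular to divergent ones. There the right side held a median of 35% T and 29% A at plus-strand genes, and the left side 35% A and 28% T at minus-strand genes. The side away from the gene had the same bias, with 34% T and 30% A at plus-strand genes and 33% A and 31% T at minus-strand genes. The median T difference across the summit was thus smaller there, 1 point at plus-strand and 2 points at minus-strand genes. Over all autosomal regions the median difference was 1 point, and at the midpoints of pairs without a region it was 1 point (right higher in 52.7%). At midpoints of pairs with a region it was 3 points (58.2%).

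At the limit of the rule, the members with the farthest start just inside 1000 bp were at aagr-3 / drap-1 (999 bp, signal 20.7) and mrps-6 / rpn-8 (995 bp, 23.5). Just outside, at 1001 bp each, were tba-1 / cox-5B (40.2) and nep-26 / mdt-22 (24.5). Small noncoding genes were within 250 bp of the summit in 12 members (2.72%), 5 of them IDR: tRNA genes in 4, none IDR, snRNA-class genes in 3, all IDR and all spliced leader genes, and snoRNA genes in 5, of which 2 were IDR. Without these 12, IDR peaks were 20.3% of members (16.6 to 24.4).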

How the data were processed

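ChIP-seq of eGFP-tagged NHR-237 was deposited as region lists for 2 biological replicates of 1 group, each replicate list of 30000 regions, a pooled list of 6542 and an IDR list of 350, in ce11. Regions were called by the authors against a control, at a threshold loose enough to include background, per the labels' file notes. Which peak caller, aligner, IDR threshold and control strain they used is not given in the sources used here. The signal of a region is the authors' enrichment value on the scale of its own list. The deposited −log10 q-value of the authors was used only to describe the regions, in which it reached 2.81 for the pool. Read counts were not analysed here, so depth is unknown.

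The members, gene lists, motifs and tests were chosen with earlier results of these data known. Starts are 5′ ends of protein-coding gene models of Ensembl release 115 on WBcel235, and the pair of a region is the diverging pair with the smallest summed distance. A replicate region matched when summits lay within 150 bp. Sequence was read from the RefSeq WBcel235 genome. Shares have exact Clopper-Pearson 95% intervals, and no hypothesis test was made, since both libraries are 1 group. Named genes were those of the 25 members of highest signal and up to 4 per list of highest signal. Other ribosomal protein genes, members named by their motifs, and the first 4 motifs the report describes beyond the other 9 were picked with values in view. Not every gene that this rule picks is named, and some results are not reported here. Genes that share a symbol were kept apart by identifier. The procedures were tested on simulated data. Python 3.11.15, NumPy 2.4.6, pandas 2.3.3, SciPy 1.17.1 and matplotlib 3.10.9 were used.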

Additional observations from a re-analysis of the deposited data

How the results depend on the processing

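Of 84 alternative settings 52 kept the value within its interval and 32 moved it. The IDR difference and the T difference, the only values that could change sign, kept theirs. With starts within 500 bp, 4.81% of autosomal regions were members, 25.6% of them IDR, the median signal was 29.4, 69.4% were in both replicate lists, 82.2% had the summit between the starts, gap and nearer distance were 394 and 126 bp, 10.5% of pairs had a region and the T difference was 9 points. With 2000 bp these were 15.2%, 14.2%, 23.3, 59%, 62.7%, 687 bp, 250 bp and 26.7%, and the IDR difference from 1-strand promoter regions fell from 15 to 9.93 points. Among IDR peaks only, 33.3% of the autosomal ones were members, with a median signal of 58.6, 100% in both lists, 85.9% between the starts, a gap of 459.5 bp, 3.82% of pairs, 10.9% with GAGAGAG and a T difference of 10 points. Replicate summits matched within 300 bp gave 76.4% in both lists, and overlapping intervals 78%. With a single replicate's highest regions, the share between the starts was 68.5% and 70.8% without replicate 1 and 2, and GAGAGAG was in 4.19% to 6.51%. GAGAGAG within 50 bp of the summit was in 3.4%.

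No paired analysis was possible because both libraries belong to 1 group and no result comes from a test. Leaving out regions near small noncoding genes, or with ribosomal protein genes in reach, was chosen after seeing the data and moved no value out of its interval. Depth limits all values in a way that cannot be stated without read counts, no untagged strain was analysed here, and whole larvae mix tissues.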
